A study of Homo sapiens with 91 samples.

Results

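The degrader KI-CDK9d-32 and the inhibitor KB-0742 were compared directly in MOLT4 cells after 4 h of treatment. The comparison used 8 of the 91 libraries of the study, 4 per compound, chosen by the line, compound and time in their labels. MOLT4 is an established human T-lineage acute lymphoblastic leukemia line, and 1000 cells were seeded per sample. The study also treated PSN1 and RH4 cells and had DMSO as vehicle, at 2, 4 or 8 h in MOLT4. Its design text writes RH1 where the sample labels have RH4. No dose is stated for either compound. The 3 MOLT4 libraries of DMSO at 4 h, numbered 1, 3 and 4, gave the background level. The labels call replicates biological without saying that they were separate cultures, so p-values here describe only the spread among these samples.

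CDK9 and its partner cyclin T form P-TEFb, the kinase that releases RNA polymerase II from promoter-proximal pausing into elongation. A pool of P-TEFb is held inactive by the 7SK RNA with HEXIM proteins, and the super elongation complex brings the active kinase to genes. Transcripts with short half-lives, MYC among them, are known to respond early to loss of CDK9 activity. An inhibitor blocks a kinase and leaves the protein in place, whereas a degrader brings its target to a ubiquitin ligase for destruction. RNA was measured, so neither CDK9 protein nor its activity was read.

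Total gene counts per library ranged from 1704708 to 2906667 for KI-CDK9d-32, from 1651616 to 2952969 for KB-0742 and from 2764089 to 2905453 for DMSO. ERCC and SIRV spike-in RNA, added in equal amount to each lysate, made up 23.4% ± 11.6 of all counts for KI-CDK9d-32 (SD, n = 4), 26.1% ± 15.6 for KB-0742 (n = 4) and 15.7% ± 4.79 for DMSO (n = 3). Replicate 3 had the highest share in each group, at 39.5%, 49.4% and 21.2%. The share differed between the compounds by less than this spread (difference -2.76 percentage points, two-sided exact permutation p = 0.686). The number of genes detected was 15628 ± 814 (SD, n = 4) under KI-CDK9d-32 and 14255 ± 489 (n = 4) under KB-0742 (exact permutation p = 0.0571), with 3 of 4 KI-CDK9d-32 libraries above all of KB-0742. Ribosomal protein mRNAs took 25.4% ± 1.17 and 26.8% ± 0.527 of gene counts (n = 4 each, exact permutation p = 0.114), with 3 of 4 KI-CDK9d-32 libraries below all of KB-0742. The part of these values in the results was not tested. After Benjamini-Hochberg adjustment over 6 such measures the smallest p was 0.343 (exact permutation). With 4 against 4 the smallest exact permutation p is 0.0286, so that a single differing measure among the 6 could not pass, and the missed threshold does not show that the libraries were alike. In bulk lysates, fewer cells and less RNA per cell cannot be told apart.

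Of 11664 genes tested, 4164 (35.7%) differed, 1707 (14.6%) higher and 2457 (21.1%) lower under KI-CDK9d-32 than under KB-0742. A gene past edgeR's quasi-likelihood test (TMM scaling, Benjamini-Hochberg adjusted p under 0.05) is said to be called, higher or lower under KI-CDK9d-32. By at least 1 log2 unit, 1126 were called higher and 1604 lower. The groups of 4 libraries did not overlap for 3504 genes (30.0%), 1419 higher (12.2%) and 2085 lower (17.9%). Of the 7500 genes not called, 3171 had a 95% interval of the difference within 1 log2 unit of 0, and for the others the interval reached further. Values below are log2 fold changes ± SE of KI-CDK9d-32 over KB-0742, negative where the level was lower under KI-CDK9d-32. Levels are CPM, counts scaled to the depth of each library, after TMM scaling, which sets each gene against the rest of its library.

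Scaling to the spike-ins moved the median of all genes from -0.026 to 0.28 and gave 1639 calls, 895 higher (7.67%) and 744 lower (6.38%). Calls toward higher were 54.6% of all calls there and 41% with TMM. Of the 1639, 1620 were called in the same direction with TMM. In the comparison of the compounds, each gene list below, apart from markers of other cell types, is therefore given under both scalings. A gene whose call was lost with spike-in scaling is named as such or said to be called with TMM alone. Every order of libraries and every median or call against DMSO used TMM scaling and was not read with spike-in scaling. The mean TMM scaling factor was 0.951 for KI-CDK9d-32, 0.840 for KB-0742 and 1.31 for DMSO. The mean spike-in share was 23.4%, 26.1% and 15.7% in the same order. With lower factors and higher shares, both compounds would stand lower against DMSO under spike-in scaling. Orders against DMSO, such as KB-0742 above it, thus describe shares of a library and may differ with spike-in scaling. Lists carry no test of their own. They are read against the 14.6% higher and 21.1% lower of all genes with TMM, and 7.67% and 6.38% with spike-in scaling. A list near these shares is not set apart by its counts.

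**Figure D1:**
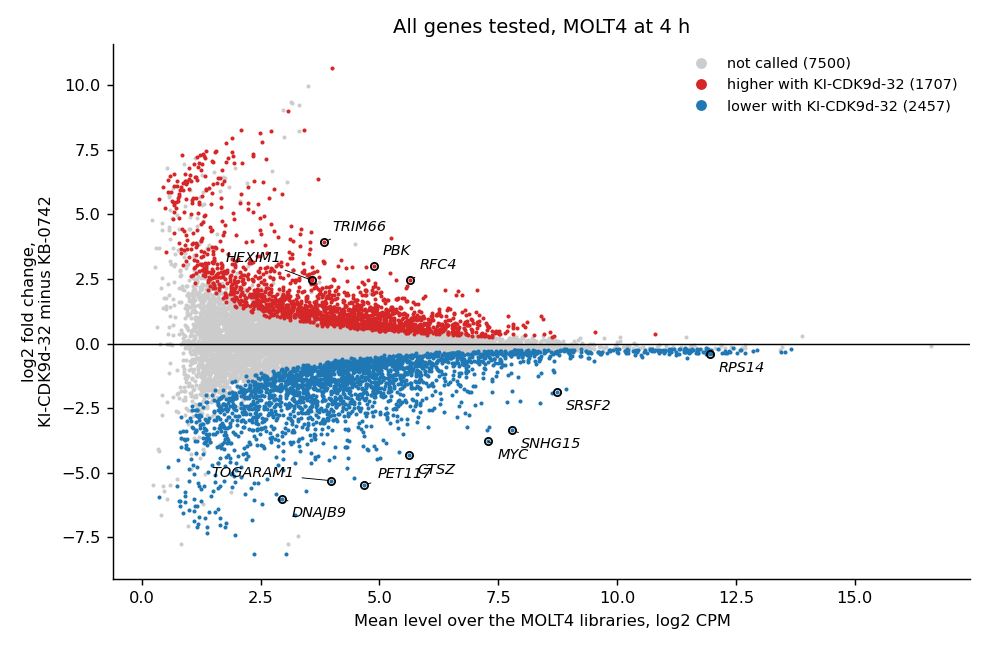
Log2 fold change of KI-CDK9d-32 over KB-0742 (y axis) against mean level in log2 CPM (x axis) for the 11664 genes tested with TMM scaling, with 1707 called higher in red, 2457 called lower in blue and 7500 not called in grey. Called genes lie on both sides, and with spike-in scaling 895 were higher and 744 lower.

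P-TEFb genes differed in both directions. Cyclin T1, CCNT1 (GRCh38 chr12:48688458-48716998), was at 15.2, 14.1, 12 and 11 CPM in the 4 KI-CDK9d-32 libraries, 48.1, 37.4, 42.5 and 28.1 under KB-0742 and 19, 12.3 and 11.1 under DMSO. The compound groups did not overlap (-1.55 ± 0.26, edgeR adjusted p = 2.89e-06). The KI-CDK9d-32 libraries overlapped DMSO and all 4 KB-0742 libraries lay above it, but the call was lost with spike-in scaling (adjusted p = 0.0750). CDK9 itself (chr9:127785679-127790787) was at 8.15, 4.95, 8.5 and 7.92 CPM under KI-CDK9d-32, 11.1, 13.2, 11.8 and 15.1 under KB-0742 and 10.6, 9.21 and 10.1 under DMSO. It was called lower without overlap (-0.81 ± 0.33, edgeR adjusted p = 0.0472), on 65 and 96 counts over the groups. That call was lost when any library but KB-0742 replicate 1 was left out (adjusted p 0.0521 to 0.154), with DESeq2 (0.0650) and with spike-in scaling (0.528). For cyclin T2, CCNT2, the groups overlapped and no difference was called (95% interval -1.23 to -0.035, edgeR adjusted p = 0.0917).

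HEXIM1, the protein inhibitor of P-TEFb and a gene of 1 exon (chr17:45148502-45152101), was higher. Its level was 7.78, 13.7, 16.5 and 9.14 CPM under KI-CDK9d-32, 3.25, 2.11, 3.48 and 0.407 under KB-0742 and 13.5, 17.6 and 13.9 under DMSO. Every KI-CDK9d-32 library exceeded every KB-0742 library (2.45 ± 0.46, edgeR adjusted p = 2.58e-05). All 4 KB-0742 libraries and 2 of the 4 KI-CDK9d-32 libraries lay below the DMSO range. JMJD6, which encodes an oxygenase, was at 5.93, 6.47, 4 and 7.92 CPM under KI-CDK9d-32, 44.9, 48, 43.9 and 46.4 under KB-0742 and 37.5, 43.3 and 36.2 under DMSO. Here KI-CDK9d-32 was far below DMSO and KB-0742 a little above it, with no overlap (-2.92 ± 0.22). MEPCE, the capping enzyme of 7SK, was lower than DMSO under both compounds and lower under KI-CDK9d-32 (-1.55 ± 0.52, edgeR adjusted p = 0.0162), a call lost with spike-in scaling, without KI-CDK9d-32 replicate 3 (0.0518) and without KB-0742 replicate 4 (0.157). Of the 9 P-TEFb, 7SK and HEXIM genes tested, 1 was higher and 5 lower (median -0.69), while with spike-in scaling 1 higher and 1 lower were called and the median was -0.47. RN7SK had no counts in these libraries and was not tested.

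The super elongation complex had 1 gene higher and 4 lower of 9 tested (median -0.75), and with spike-in scaling 1 lower was called and the median was -0.51. The call that both scalings shared was AFF4, its scaffold, at 17.4, 16.8, 21.5 and 18.3 CPM under KI-CDK9d-32, 72.2, 58.5, 63.4 and 52.9 under KB-0742 and 43.1, 23.2 and 35.9 under DMSO (-1.74 ± 0.25). DMSO lay between the compounds without overlap. ICE1 (-1.82 ± 0.40) and the elongation factor ELL (-1.73 ± 0.38) were lower with TMM alone. Of 17 pausing and elongation factors, 1 was higher and 6 lower (median -0.14), but with spike-in scaling no member was called, 2 passed an unadjusted p of 0.05 in edgeR and the median was 0.063. RTF1, which travels with elongating polymerase, was at 31.1, 30.8, 36 and 35.3 CPM under KI-CDK9d-32, next to DMSO at 32, 35.7 and 30.7, and at 84.5, 83.8, 87.8 and 72.9 under KB-0742 (-1.30 ± 0.16). IWS1 (-1.62 ± 0.22) and PAF1 (-1.05 ± 0.15) were lower too, and like RTF1 only with TMM.

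Among 14 other transcription-linked kinases and cyclins, 3 were higher and 5 lower (median -0.34), and with spike-in scaling 1 lower was called and the median was 0.13. CCNL1, a cyclin that acts in splicing, was at 22.2, 21.3, 14.5 and 19.5 CPM under KI-CDK9d-32, 113, 92.3, 87.8 and 112 under KB-0742 and 29.1, 23.7 and 32.9 under DMSO. All KB-0742 libraries were above every other library, and KI-CDK9d-32 lay below DMSO (-2.37 ± 0.19, edgeR adjusted p = 6.84e-15). Its relative CCNL2 (-1.58 ± 0.16) and the elongation kinase CDK12 (-1.27 ± 0.25) lost their calls with spike-in scaling. Of 12 RNA polymerase II subunits, 1 was higher and 5 lower (median -0.17), among them POLR2B (-0.83 ± 0.16) and POLR2D (-0.81 ± 0.12), but with spike-in scaling no member was called, 0 passed an unadjusted p of 0.05 in edgeR and the median was 0.15. The largest subunit, POLR2A, was at 99.3, 100.1, 89 and 69.4 CPM under KI-CDK9d-32 and 74.1, 78.6, 77.3 and 121 under KB-0742. The groups overlapped and the estimate was 0.022 (95% interval -0.28 to 0.33, edgeR adjusted p = 0.932), with a sign that turned when any of 5 single libraries was left out.

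MYC was at 20.7, 32.7, 21.5 and 14 CPM under KI-CDK9d-32, 309, 324, 264 and 359 under KB-0742 and 183, 128 and 156 under DMSO. With TMM scaling the DMSO libraries lay between the compounds and touched neither, an order that was not read with spike-in scaling. The difference was -3.78 ± 0.17 (edgeR adjusted p = 5.08e-23) and -3.57 with spike-in scaling. Of 10 members of the MYC and MAX network tested, 1 was higher and 3 lower (median -0.51), and with spike-in scaling 1 higher and 2 lower were called and the median was -0.19. MGA, a MAX-binding repressor, was at 17, 11.4, 10 and 12.8 CPM under KI-CDK9d-32 and 58.5, 53.3, 53.6 and 35 under KB-0742 (-1.94 ± 0.24). MXD3, a MAX partner that opposes MYC, was higher, at 41.5, 41.9, 43 and 61.5 against 19.5, 18.5, 16 and 26.1 CPM (1.19 ± 0.21). DMSO was at 51.2, 59.5 and 60.6 CPM, so the KB-0742 libraries stood apart on the low side. MAX itself was not called (0.17 ± 0.13, edgeR adjusted p = 0.343), and MYCN had no counts.

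**Figure D2:**
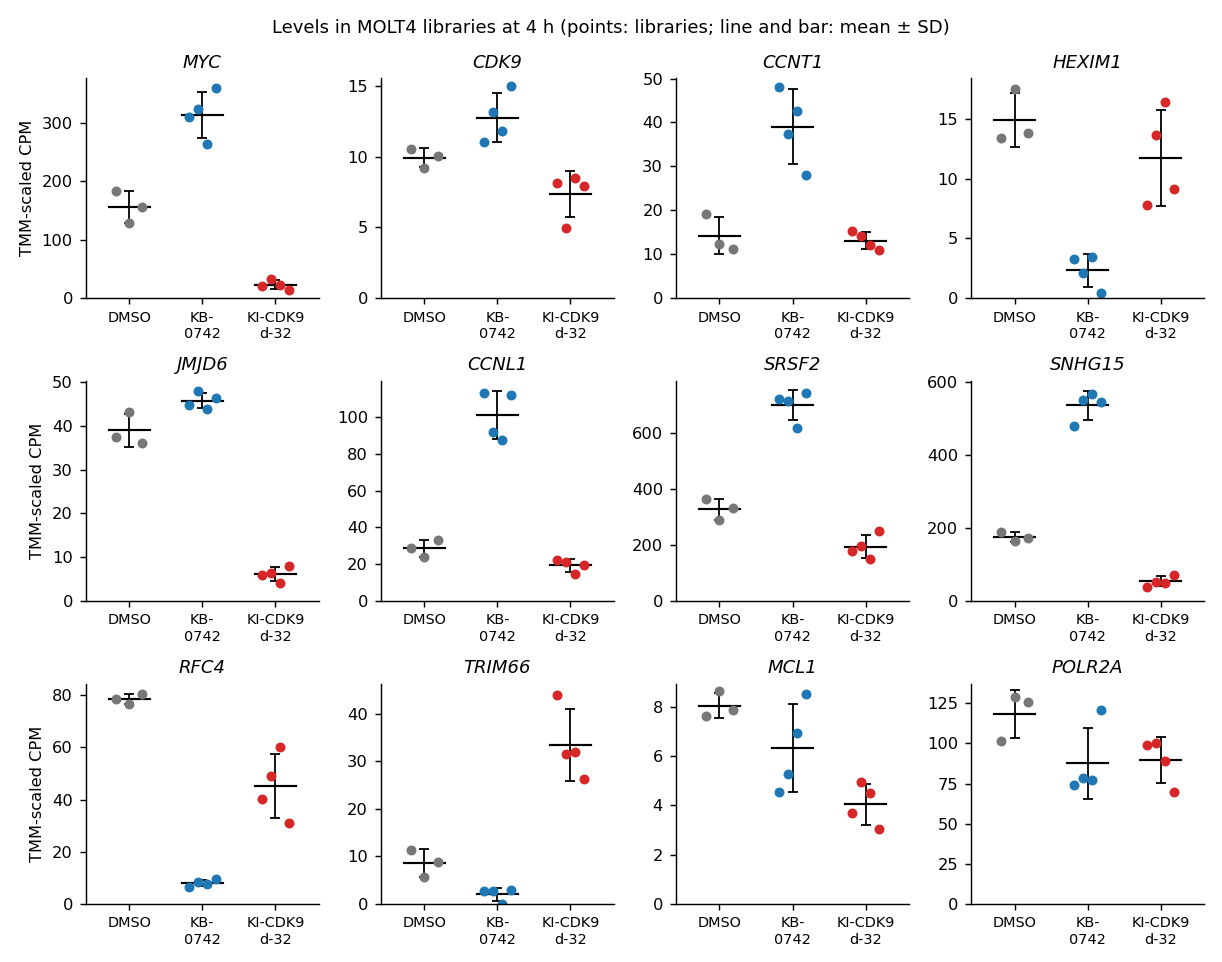
TMM-scaled CPM (y axis, from 0) of 12 genes in the MOLT4 libraries at 4 h by treatment (x axis), with points for libraries and a line and bar for mean ± SD (n = 3 DMSO, 4 KB-0742 and 4 KI-CDK9d-32). MYC and SNHG15 have DMSO between the compounds, CCNT1 has KI-CDK9d-32 overlapping DMSO, and HEXIM1 and RFC4 have KB-0742 below DMSO.

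Genes of ribosome assembly in the nucleolus, many of them described as MYC targets, were lower in 22 of 44 cases and higher in 3 (median -0.33), while with spike-in scaling 1 higher and 5 lower were called and the median was -0.068. WDR43, a factor of the small-subunit processome, was at 10.7, 22.8, 24.5 and 15.2 CPM under KI-CDK9d-32, 105, 107, 129 and 93.2 under KB-0742 and 49.1, 56.4 and 52.8 under DMSO (-2.56 ± 0.19). GRWD1, a ribosomal protein chaperone, was at 15.6, 30.5, 24 and 23.1 against 139.8, 121, 78 and 159 CPM (-2.43 ± 0.18), and PPAN, a factor of large-subunit assembly, differed by -3.08 ± 0.69. In these 3 genes every KI-CDK9d-32 library lay below every KB-0742 and DMSO library. The abundant nucleolar genes NPM1 (-0.43 ± 0.091) and NCL (-0.33 ± 0.089) differed less and only with TMM, and NOC4L was higher (1.09 ± 0.19). Among 27 metabolic genes linked to MYC, 4 were higher and 8 lower (median -0.18). These were 14.8% and 29.6%, beside 14.6% and 21.1% of all genes. With spike-in scaling no member was called, 3 passed an unadjusted p of 0.05 in edgeR and the median was 0.18. UMPS, of pyrimidine synthesis, was lower (-1.40 ± 0.23) and CDK4 higher (0.72 ± 0.14) with TMM alone.

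The E-box CACGTG, the palindromic site that MYC and MAX bind, was searched in the RefSeq promoters (GRCh38.p14) from 250 bases before to 50 after the start. It occurred in 7.44% of 27305 promoters, in 10.7% of 8552 promoters of genes tested, in 11.8% of those called lower and in 11.1% of those called higher. In the nucleolar list it occurred in 16 of 37 promoters, in 6 of 18 members called lower and in 10 of the other 19. In 12 of the 16 it lay only at or after the start. Stretches around an E-box before the start in the remaining 4 are shown because they place the motif beside called and uncalled members alike, with the E-box in capitals, 5′ to 3′ on the strand of the gene.
NOP10, chr15:34343137-34343184, minus strand, -0.70 ± 0.11, called lower with TMM alone: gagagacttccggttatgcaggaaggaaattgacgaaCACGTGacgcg
UTP20, chr12:101280058-101280104, plus strand, 0.55 ± 0.42, not called: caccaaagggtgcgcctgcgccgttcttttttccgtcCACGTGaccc
IMP4, chr2:130342657-130342736, plus strand, -0.29 ± 0.17, not called: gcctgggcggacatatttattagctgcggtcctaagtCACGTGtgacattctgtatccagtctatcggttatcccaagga
POLR1G, chr19:45406595-45406643, plus strand, 0.0032 ± 0.36, not called: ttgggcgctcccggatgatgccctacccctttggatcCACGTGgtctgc
The E-box shown ended 6, 5, 198 and 7 bases before the start site in NOP10, UTP20, IMP4 and POLR1G. The promoters of NOP10 and IMP4 hold 2 E-boxes each, of which 1 is shown. A match of letters is a description and does not show binding.

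The 8 lowest genes with a mean level of at least 3 log2 CPM and no overlap belonged to varied functions. TOGARAM1 (chr14:44962208-45074431), a microtubule-binding gene of cilia, was at 0.37, 2.28, 0 and 1.83 CPM under KI-CDK9d-32, 50.1, 38.5, 46.7 and 48 under KB-0742 and 7.4, 5.31 and 13.3 under DMSO (-5.30 ± 0.42, edgeR adjusted p = 1.33e-14). CTSZ, a lysosomal cathepsin (chr20:58995185-59007247), was at 2.96, 3.81, 8.5 and 7.31 CPM under KI-CDK9d-32, 119, 108, 105 and 99.8 under KB-0742 and 39.9, 27.6 and 35.1 under DMSO (-4.33 ± 0.23). ADPGK-AS1 (-5.21 ± 0.38) is an antisense RNA, which libraries without strand cannot tell from its partner, and ZNF622 (-4.46 ± 0.31) is a zinc finger gene. RPUSD2 (-4.43 ± 0.37) encodes a pseudouridine synthase, MUL1 (-4.12 ± 0.36) a mitochondrial ubiquitin ligase, CLP1 (-4.09 ± 0.32) an RNA kinase of 3′ end processing and DDX20 (-4.06 ± 0.28) a helicase of the SMN complex. With TMM scaling, in all 8 the KB-0742 libraries lay above every DMSO library and the KI-CDK9d-32 libraries below. All 8 calls between the compounds held with spike-in scaling, under which the order against DMSO was not read.

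The 8 highest genes showed several orders, and their calls also held with spike-in scaling. TRIM66, a chromatin-associated gene (chr11:8612037-8682694), was at 44.1, 31.6, 32 and 26.2 CPM under KI-CDK9d-32, 2.6, 2.64, 0 and 2.85 under KB-0742 and 11.4, 5.58 and 8.7 under DMSO (3.94 ± 0.39, edgeR adjusted p = 1.57e-11). TNFRSF13C, the BAFF receptor, was at 24.8, 29.3, 35 and 42.6 CPM under KI-CDK9d-32, 3.25, 2.11, 4.88 and 3.66 under KB-0742 and 7.92, 7.26 and 8.97 under DMSO (3.24 ± 0.39). In both genes, and in PLAGL1 (2.98 ± 0.39), the compounds lay on opposite sides of DMSO. GCM1, a transcription factor known from placenta, was at 25.2, 36.5, 25.5 and 16.4 CPM under KI-CDK9d-32 and 1.3, 4.75, 2.09 and 1.22 under KB-0742, both above DMSO at 0, 0.838 and 0 (3.46 ± 0.50). PBK, a mitotic kinase, was at 38.1, 36.5, 45 and 34.7 CPM under KI-CDK9d-32 and 35.7, 45.5 and 39.7 under DMSO, while KB-0742 lay far below at 4.55, 4.22, 4.88 and 5.29 (3.01 ± 0.27). RNPC3, a protein of the minor spliceosome, had that order too (23.7, 21.7, 26.5 and 26.8 CPM under KI-CDK9d-32, 21.7, 24 and 19.3 under DMSO and 2.6, 3.16, 6.96 and 1.22 under KB-0742, 2.91 ± 0.34), as did LRRC20 (2.99 ± 0.39) and BIN3 (2.98 ± 0.37), with KI-CDK9d-32 overlapping DMSO and KB-0742 below it.

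Splicing regulators differed in both directions. Of 20 SR protein and CLK kinase genes tested, 6 were higher and 9 lower (median -0.43), and with spike-in scaling 2 higher and 5 lower were called and the median was -0.11. SRSF2, an SR protein, was at 177, 197, 151 and 250.3 CPM under KI-CDK9d-32, 724, 717, 621 and 745 under KB-0742 and 364, 289.6 and 332 under DMSO (-1.86 ± 0.13, edgeR adjusted p = 4e-15). CLK1 (-2.33 ± 0.21) and CLK2 (-1.81 ± 0.30), kinases of SR proteins, were lower as well, and in all 3 genes DMSO lay between compounds that did not overlap it. Of 41 core spliceosome genes, 2 were higher and 21 lower (median -0.30), but with spike-in scaling 1 lower was called and the median was 0.041, so that the sign of the median depended on the scaling. The gene called under both was PRPF3, of the U4/U6 particle (-1.85 ± 0.17).

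Noncoding hosts of snoRNAs, several of which are known for rapid decay of their spliced RNA, were lower in 19 of 22 cases (median -0.94), and with spike-in scaling 4 lower were called and the median was -0.65. SNHG15 was at 39.3, 52.2, 49.5 and 71.9 CPM under KI-CDK9d-32, 478, 551, 568 and 545 under KB-0742 and 189, 163 and 173 under DMSO (-3.35 ± 0.15, edgeR adjusted p = 9.38e-24). SNHG17 was at 29.3, 48.4, 30.01 and 32.9 CPM under KI-CDK9d-32, 354, 402, 388 and 285 under KB-0742 and 117, 93.5 and 120.5 under DMSO (-3.33 ± 0.17). In both genes DMSO lay between the compounds without overlap, and both calls held with spike-in scaling. GAS5 (-1.03 ± 0.096) and SNHG1 (-1.27 ± 0.12) were lower with TMM alone, and SNHG6 (-0.064 ± 0.11) and SNHG14 (0.28 ± 0.18) were not called. With TMM scaling against the shared DMSO libraries, the median was -0.39 under KI-CDK9d-32, with 12 of 22 lower (18.9% of all genes). Under KB-0742 it was 0.71, with 15 of 22 higher (18.1% of all genes). With spike-in scaling, which was not read here, both medians would be lower.

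**Figure D3:**
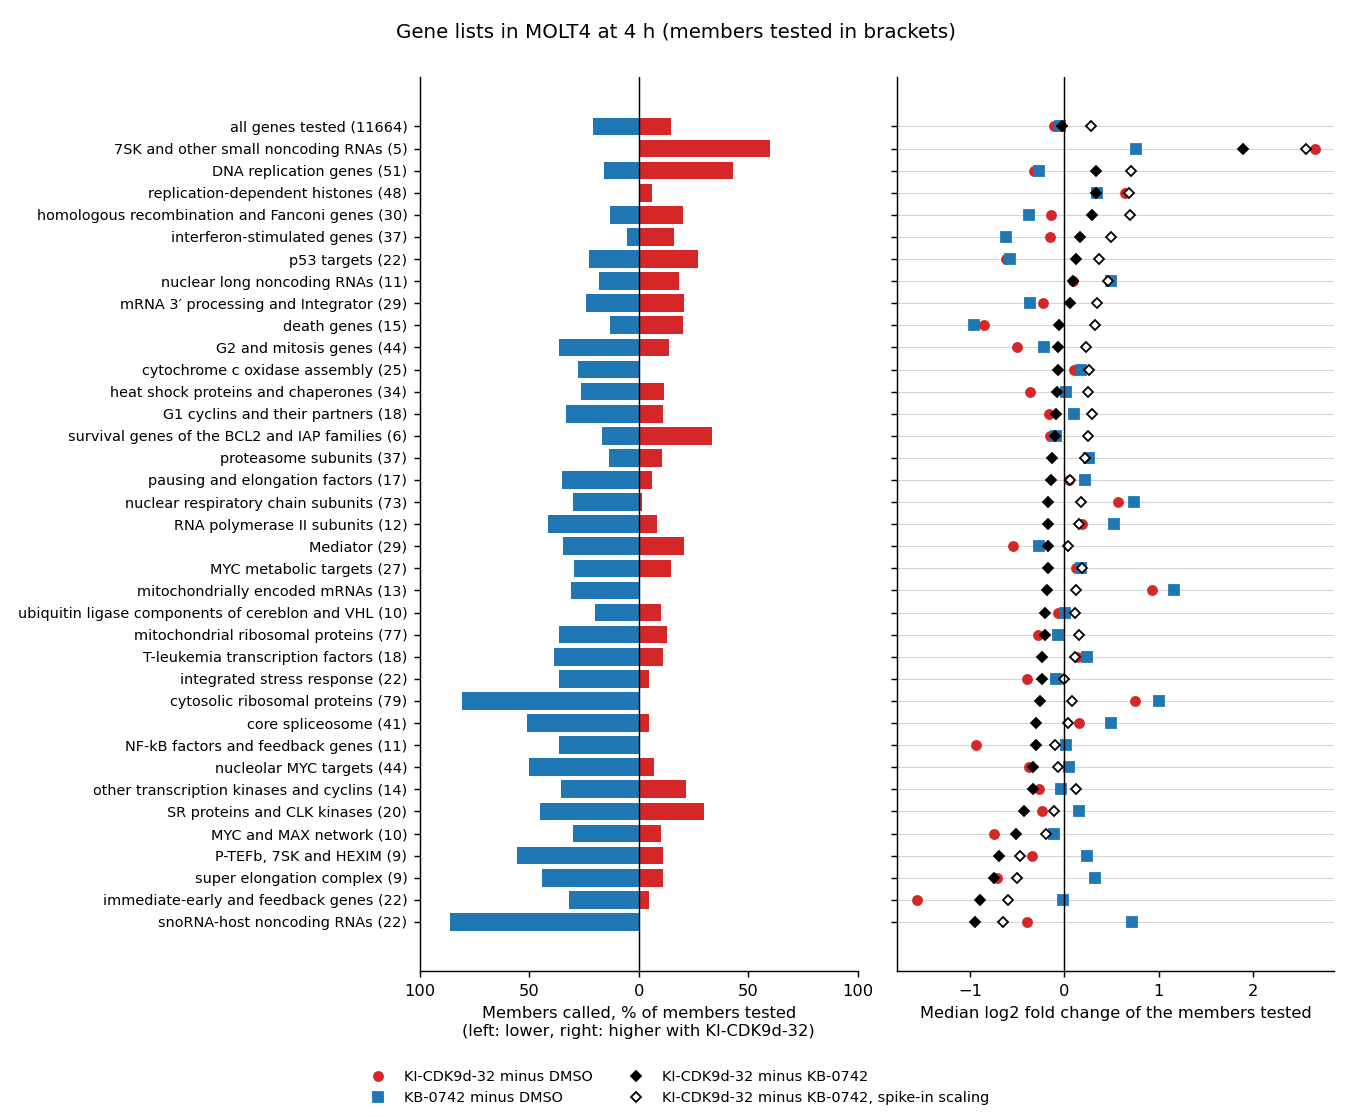
Left, share of the tested members of each gene list called higher (red, to the right) or lower (blue, to the left) under KI-CDK9d-32 with TMM scaling, in %. Right, the median log2 fold change (x axis) between the compounds (black, and open with spike-in scaling, where the medians of spliceosome and ribosomal protein genes change sign) and of each compound against DMSO with TMM scaling (red and blue).

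Mediator, the bridge between activators and polymerase, had 6 of 29 subunit genes higher and 10 lower (median -0.17), and with spike-in scaling 4 higher and 5 lower were called and the median was 0.041. MED17 was at 3.33, 0, 2 and 3.05 CPM under KI-CDK9d-32 and 20.8, 25.3, 35.5 and 35.8 under KB-0742 (-3.83 ± 0.47), and MED7 was lower too (-2.46 ± 0.43), both without overlap. MED31, with 3 counts under KB-0742, had a count ratio of 10.1 (95% interval 3.19 to 51.1, counting error only). Its groups overlapped, with KI-CDK9d-32 replicate 3 at 0. Among 29 genes of mRNA 3′ processing and Integrator, 6 were higher and 7 lower (median 0.062). These were 20.7% and 24.1%, beside 14.6% and 21.1% of all genes. With spike-in scaling 2 higher and 5 lower were called and the median was 0.35. CLP1 was at 2.59, 4.19, 3.5 and 3.65 against 56.6, 57, 41.8 and 81.8 CPM, and the Integrator subunits INTS6 (-3.71 ± 0.68) and INTS5 (-2.33 ± 0.35) were lower.

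Immediate-early and feedback genes were called lower in 7 of 22 cases and higher in 1 (median -0.89), and with spike-in scaling 1 higher and 4 lower were called and the median was -0.60. ID3, an inhibitor of E-protein transcription factors, was at 0.37, 5.33, 1 and 1.22 CPM under KI-CDK9d-32, 37.7, 25.3, 34.8 and 39.5 under KB-0742 and 18.8, 31.3 and 32.1 under DMSO (-4.01 ± 0.38). DUSP2, a MAP kinase phosphatase, was at 2.96, 1.9, 1 and 0 against 33.2, 15.8, 7.66 and 26.1 CPM (-3.64 ± 0.50). For both genes KB-0742 overlapped DMSO and KI-CDK9d-32 lay below it. ID2, a relative of ID3, was higher on few counts, with overlap between the groups (2.84 ± 0.84). FOS (0.80 ± 1.22) and EGR1 (0.77 ± 0.72) were not called. With TMM scaling against the shared DMSO libraries, the median was -1.56 under KI-CDK9d-32 and -0.013 under KB-0742.

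Of 22 integrated stress response genes, 1 was higher and 8 lower (median -0.23), and with spike-in scaling 3 lower were called and the median was -0.0043. DDIT4, an inhibitor of mTOR signaling, was at 7.41, 3.05, 5 and 1.83 CPM under KI-CDK9d-32, 40.3, 49.6, 37.6 and 36.2 under KB-0742 and 45.4, 35.7 and 40.2 under DMSO (-3.17 ± 0.30, edgeR adjusted p = 2.14e-12), so KI-CDK9d-32 was the group below the DMSO range. SESN2 had no counts under KI-CDK9d-32 and was at least 5.71-fold lower (floor of 3 counts over the group). It rested on 14 counts under KB-0742, where replicate 3 was also at 0. TRIB3 had a count ratio of 0.136 (95% interval 0.0257 to 0.466), a call lost without KB-0742 replicate 1 (edgeR adjusted p = 0.0540). For SESN2 and TRIB3 the groups overlapped. Of 11 NF-kB factors and feedback genes 4 were lower (median -0.31), and with spike-in scaling 3 lower were called and the median was -0.095. NFKBIA, the main inhibitor of NF-kB, was at 13, 11, 19 and 7.92 against 33.8, 41.1, 41.8 and 52.5 CPM (-1.73 ± 0.24), and the transcription factor IRF1 at 15.9, 16, 11.5 and 15.2 against 113, 99.1, 116 and 94.5 CPM (-2.83 ± 0.20). NFKBIE rested on 1 count under KI-CDK9d-32 (count ratio 0.0545, 95% interval 0.00129 to 0.354) and was not called with spike-in scaling.

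Transcription factors of T-cell leukemia were lower in 7 of 18 cases and higher in 2 (median -0.23), and with spike-in scaling 1 higher and 2 lower were called and the median was 0.11. MYB was at 18.9, 20.9, 13 and 24.4 CPM under KI-CDK9d-32, 67.6, 77.5, 79.4 and 74.1 under KB-0742 and 45.4, 44.7 and 52.8 under DMSO, with DMSO between the compounds (-1.96 ± 0.19). GATA3 was at 3.33, 8, 4 and 3.05 against 19.5, 17.9, 23 and 19.1 CPM (-2.06 ± 0.41). NOTCH3 was higher at low level (2.73 ± 0.98), a call lost without KI-CDK9d-32 replicate 3 or without KB-0742 replicate 1, 2 or 4 (edgeR adjusted p 0.0519 to 0.0725). Of 18 G1 cyclins and their partners, 2 were higher and 6 lower (median -0.088). These were 11.1% and 33.3%, beside 14.6% and 21.1% of all genes. With spike-in scaling 2 lower were called and the median was 0.29. CDC25A, a phosphatase that activates cell cycle kinases, was at 2.96, 3.05, 2 and 6.09 CPM under KI-CDK9d-32, 26.7, 25.8, 32 and 29.7 under KB-0742 and 13.2, 5.86 and 5.17 under DMSO (-3.05 ± 0.35). CCNE1 was lower (-2.78 ± 0.55), and so was the CDK inhibitor gene CDKN1B with TMM alone (-1.77 ± 0.47).

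DNA replication genes were higher in 22 of 51 cases and lower in 8 (median 0.34), and with spike-in scaling 5 higher were called and the median was 0.71. RFC4, a subunit of the clamp loader, was at 40.4, 49.1, 60.02 and 31.1 CPM under KI-CDK9d-32, 6.5, 8.44, 7.66 and 9.36 under KB-0742 and 78.7, 76.5 and 80.5 under DMSO (2.47 ± 0.22, edgeR adjusted p = 7.12e-13). ORC6, of the origin recognition complex, was at 29.3, 36.9, 46.5 and 54.8 CPM under KI-CDK9d-32, 12.4, 18.5, 7.66 and 9.77 under KB-0742 and 50.7, 62.8 and 59.5 under DMSO (1.76 ± 0.23), and POLA2, of the primase complex, was also higher (1.56 ± 0.26). In RFC4 and POLA2 both compounds lay below DMSO without overlap, and KB-0742 was the lower of them. Of 30 homologous recombination and Fanconi genes, 6 were higher and 4 lower (median 0.29), and with spike-in scaling 3 higher and 1 lower were called and the median was 0.70. XRCC3 was higher (1.66 ± 0.29) and FANCF, a gene of 1 exon, lower (-2.53 ± 0.33).

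Mitotic genes were lower in 16 of 44 cases and higher in 6 (median -0.065), while with spike-in scaling 2 higher and 1 lower were called and the median was 0.23, so that the sign of the median depended on the scaling. CCNA2, cyclin A2, was at 59.6, 72.3, 77 and 71.9 CPM under KI-CDK9d-32, 219.7, 260, 291 and 250.4 under KB-0742 and 142, 164 and 142 under DMSO, with DMSO between the compounds (-1.87 ± 0.13). ANLN, a cytokinesis gene, was lower with TMM alone (-1.73 ± 0.28), and NUF2, of the kinetochore, higher (1.38 ± 0.28). Of 48 replication-dependent histone genes 3 were higher (6.25%, below the 14.6% of all genes), with a median of 0.33. H2BC11 was among them (1.66 ± 0.41). With spike-in scaling 1 higher was called, where 7.67% of all genes were, and the median was 0.68. Histone genes are near copies of each other, so reads may have been split between them.

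MCL1, a short-lived survival factor, was at 3.7, 4.95, 4.5 and 3.05 CPM under KI-CDK9d-32, 4.55, 5.27, 6.96 and 8.55 under KB-0742 and 7.66, 8.66 and 7.89 under DMSO. The compound groups overlapped and the difference was not called (95% interval -1.35 to 0.064, edgeR adjusted p = 0.153). Of 6 survival genes tested, 2 were higher and 1 lower, and with spike-in scaling 1 higher was called and the median was 0.24. BCL2L1 was lower (-0.71 ± 0.15) and BIRC5 higher (0.27 ± 0.089) with TMM alone, and BIRC5 lost its call without KB-0742 replicate 1. CFLAR, an inhibitor of caspase activation, was higher (1.31 ± 0.50), a call lost without KI-CDK9d-32 replicate 1 or 4 or KB-0742 replicate 2 or 4 (edgeR adjusted p 0.0550 to 0.143). Of 15 death genes, 3 were higher and 2 lower, and with spike-in scaling 1 higher and 1 lower were called and the median was 0.32. The adaptor FADD was at 4.44, 5.71, 6 and 4.87 against 57.2, 36.4, 18.8 and 35.4 CPM (-2.81 ± 0.33), and BCL2L11 was lower with TMM alone (-1.83 ± 0.41). Of 22 p53 targets, 6 were higher and 5 lower, and with spike-in scaling 3 higher and 3 lower were called and the median was 0.37. DDB2, a DNA damage sensor, was at 33.3, 63.6, 41 and 49.9 CPM under KI-CDK9d-32, 7.15, 13.7, 6.96 and 8.14 under KB-0742 and 29.1, 31 and 22.6 under DMSO, with DMSO between the compounds (2.36 ± 0.28).

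Cytosolic ribosomal protein genes were called lower in 64 of 79 cases with TMM, by small amounts (median -0.25), but with spike-in scaling no member was called, 0 passed an unadjusted p of 0.05 in edgeR and the median was 0.085, the opposite sign. RPS14 was at 3789, 4300, 3909 and 4016 CPM under KI-CDK9d-32, 4802, 5260, 5088 and 5863 under KB-0742 and 2497, 2594 and 2396 under DMSO (-0.39 ± 0.073). With TMM scaling both compounds lay above DMSO, an order that describes shares of counts and not amounts of RNA. RPL34 (-0.42 ± 0.074) and RPS15A (-0.38 ± 0.095) were alike. These genes have many processed copies that may share their reads. Of 13 mitochondrially encoded mRNAs 4 were lower with TMM (median -0.18), but with spike-in scaling no member was called, 0 passed an unadjusted p of 0.05 in edgeR and the median was 0.12. For MT-CO2 the groups overlapped, and its value of -0.34 ± 0.12 became -0.045 with spike-in scaling.

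Nuclear genes for mitochondria held larger single changes. Of 77 mitochondrial ribosomal protein genes, 10 were higher and 28 lower (median -0.20), and with spike-in scaling 2 higher and 5 lower were called and the median was 0.15. MRPL36 was at 11.5, 32, 26 and 19.5 CPM under KI-CDK9d-32, 122, 155, 124 and 150.2 under KB-0742 and 79.8, 84.1 and 78 under DMSO (-2.63 ± 0.18), and MRPS30 was lower too (-2.74 ± 0.22), both with DMSO between the compounds. Of 73 nuclear respiratory chain subunits, 1 was higher and 22 lower (median -0.17), but with spike-in scaling no member was called, 1 passed an unadjusted p of 0.05 in edgeR and the median was 0.18. UQCRFS1 was lower (-1.08 ± 0.12) and NDUFV2 was the one higher (0.78 ± 0.15), both with TMM alone. Of 25 cytochrome c oxidase assembly genes 7 were lower (median -0.066), and with spike-in scaling 4 lower were called and the median was 0.26. PET117 was at 2.22, 1.14, 0 and 0 CPM under KI-CDK9d-32, 52.7, 46.9, 30.6 and 52.1 under KB-0742 and 22.5, 19.8 and 20.9 under DMSO (-5.47 ± 0.42, edgeR adjusted p = 1.05e-14). SCO2, a copper chaperone, was at 0.741, 0.381, 2.5 and 0 CPM under KI-CDK9d-32, 16.9, 17.9, 15.3 and 28.1 under KB-0742 and 30.4, 26 and 31.5 under DMSO (-4.41 ± 0.43). Both are genes of 2 exons in which KI-CDK9d-32 lay below every other library, with KB-0742 above DMSO for PET117 and overlapping it for SCO2.

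Of 34 heat shock proteins and chaperones, 4 were higher and 9 lower (median -0.081), and with spike-in scaling 2 lower were called and the median was 0.25. DNAJB9, a chaperone of the endoplasmic reticulum, had 1 count under KI-CDK9d-32 and was at 7.8, 12.1, 11.8 and 8.55 CPM under KB-0742 (count ratio 0.0112, 95% interval 0.00028 to 0.0643). DNAJA2 was lower (-1.70 ± 0.18). DNAJB1 was below DMSO (179, 182 and 162 CPM) under both compounds, at 58.1, 49.5, 34 and 32.3 against 93, 96, 92.6 and 89.98 CPM, and called with TMM alone (-1.07 ± 0.16). Of 37 proteasome subunits, 4 were higher and 5 lower (range -0.52 to 0.77), but with spike-in scaling no member was called, 2 passed an unadjusted p of 0.05 in edgeR and the median was 0.21. Of 37 interferon-stimulated genes, 6 were higher and 2 lower (16.2% and 5.41%, beside 14.6% and 21.1% of all genes). With spike-in scaling 2 higher and 1 lower were called and the median was 0.49. OAS3 was higher (1.37 ± 0.31) and IFIT5 lower with TMM alone (-2.08 ± 0.52). Of 10 genes of the cereblon and VHL ubiquitin ligases, 1 was higher, DDB2, and 2 lower, RBX1 (-0.28 ± 0.094) and ELOC (-0.27 ± 0.11) (median -0.20), and with spike-in scaling 1 higher was called and the median was 0.12. The sign of RBX1 and ELOC turned with spike-in scaling (0.092 and 0.031). Both calls were also lost with RLE scaling (edgeR adjusted p = 0.0855 and 0.147), with DESeq2 (adjusted p = 0.0505 and 0.112), with either other filter on low counts, with the 8 libraries alone and without KI-CDK9d-32 replicate 1 (edgeR adjusted p = 0.0565 and 0.145). RBX1 lost its call without KI-CDK9d-32 replicate 3 (0.0606), and ELOC without KI-CDK9d-32 replicate 4 (0.109) and KB-0742 replicates 2 (0.158), 3 (0.0675) and 4 (0.095), each left out alone.

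Of 5 small noncoding RNAs tested 3 were higher (median 1.89), and with spike-in scaling 2 higher were called and the median was 2.56. RPPH1, the RNA of RNase P, was at 21.9, 20.9, 17.5 and 19.5 CPM under KI-CDK9d-32, 8.45, 2.64, 4.88 and 1.22 under KB-0742 and 1.06, 0.838 and 1.9 under DMSO (2.31 ± 0.48). SNORD3A, the U3 snoRNA, was at 47.4, 23.2, 20.5 and 18.9 CPM under KI-CDK9d-32 but had counts in 1 of 4 KB-0742 libraries (3.16 ± 1.18), a call lost with spike-in scaling and when any of 5 single libraries was left out (KI-CDK9d-32 replicates 1 and 2, KB-0742 replicates 1, 2 and 4). RN7SL1, a signal recognition particle RNA with a near-identical copy, was higher (1.89 ± 0.68), a call lost without KI-CDK9d-32 replicate 1 or KB-0742 replicate 1 or 2. SMART-seq2 primes on poly(A) tails, which these RNAs mostly lack. Of 11 nuclear long noncoding RNAs, 2 were higher, MIAT (2.92 ± 0.77) and NEAT1 (1.01 ± 0.34), and 2 lower, NORAD (-1.49 ± 0.19) among them, and with spike-in scaling 1 higher was called and the median was 0.46. NEAT1 and NORAD lost their calls there, and NEAT1 also without KI-CDK9d-32 replicate 3 or KB-0742 replicate 1 or 4.

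All 24 T-lineage markers had counts under both compounds, with summed levels of 9308 to 9816 CPM under KI-CDK9d-32, 8853 to 10378 under KB-0742 and 6338 to 6475 under DMSO. Of the 22 tested, 4 were higher and 1 lower, and with spike-in scaling 1 higher was called and the median was 0.33. ZAP70, a kinase of T-cell receptor signaling, was at 403, 345, 367 and 416 against 198, 222, 205 and 238 CPM (0.82 ± 0.11), and RAG1, of receptor gene rearrangement, was lower (-1.31 ± 0.31), both with TMM alone. Summed levels of 10 B-lineage markers were 1.5 to 7.41 CPM under KI-CDK9d-32 and 2.04 to 4.55 under KB-0742, with MS4A1 and PAX5 at 0 under both, and the 1 marker tested was not called. For 11 myeloid markers they were 1.83 to 5.93 CPM under KI-CDK9d-32 and 0 under KB-0742, with S100A8 and CD33 at 0 under both. MPO, a granule enzyme, was the 1 myeloid marker tested. It was at 1.85, 3.81, 2 and 1.22 CPM under KI-CDK9d-32 and at 0 under KB-0742 and DMSO (at least 5.72-fold higher than KB-0742). With no counts under KB-0742, it could differ only toward higher.

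For 10 muscle markers the sums were 6.09 to 25.0 CPM under KI-CDK9d-32, 0.527 to 0.814 under KB-0742 and 0 to 2.18 under DMSO. Only 2 of the 10 were tested. ACTC1, a cardiac actin, was at 4.81, 6.85, 16 and 4.87 CPM under KI-CDK9d-32 and at 0 under KB-0742 and DMSO (at least 19.3-fold higher than KB-0742). It too could differ only toward higher. MYH3, a muscle myosin, was called higher too (2.82 ± 1.01), a call lost with spike-in scaling and in 4 of the single omissions. MYOD1 and DES, which define muscle cells, were at 0 under both compounds. Epithelial markers summed to 1.22 to 2.59 CPM under KI-CDK9d-32 and 0 to 3.48 under KB-0742, with EPCAM and KRT19 at 0, and none was tested. The part of other cells in these low levels was not tested.

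Direction differed with gene structure. Among 9907 protein-coding genes tested, 14.97% were higher and 21.1% lower. The 157 genes with 1 exon in every annotated transcript (GENCODE release 29) were lower in 42.7% and higher in 2.55% of cases (median -0.76). Mitochondrially encoded mRNAs, which include 1-exon genes such as MT-CO2, and histone genes were not set apart. Against DMSO with TMM scaling, the 13 mitochondrially encoded mRNAs had medians of 1.15 under KB-0742 and 0.92 under KI-CDK9d-32. The part of such genes in the values by exon number was not tested. The share lower was 39.8% for 236 genes with 2 exons, 30.5% for 3 to 5, 20.8% for 6 to 10, 16.3% for 11 to 20 and 15.1% for over 20 exons. With spike-in scaling 23.6% of 1-exon genes and 2.70% of genes with over 20 exons were lower, beside 5.47% of all protein-coding genes. Among genes with a span below the median of 32238 bases, 42.1% of 375 genes with 1 or 2 exons and 16.8% of 1282 with over 10 were lower. Among genes with a span above it the shares were 16.7% of 18 and 15.5% of 3295, so that few long genes with 1 or 2 exons were there to compare. With spike-in scaling these shares above the median span were 0% and 2.91%. Among genes with a mean level above the median, the shares were 55.6% of 117 and 21.7% of 2335, and below it 34.8% of 276 and 9.90% of 2242. Across the protein-coding genes the Spearman correlation of the change was 0.15 with exon number and 0.11 with genomic span, a description over genes that share the same 8 libraries.

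For 1-exon genes the median against the shared DMSO libraries with TMM scaling was 0.60 under KB-0742 and -0.29 under KI-CDK9d-32. For 2-exon genes it was -0.097 and -0.97. For genes with over 20 exons both lay near 0, at -0.043 and 0.012. These medians were not read with spike-in scaling, under which they would be lower. HEXIM1, with 1 exon, went against this pattern. Entries of the GENCODE type TEC, which await experimental proof, were lower in 36 of 76 cases and higher in 4 (median -1.69), and sense-intronic RNAs in 13 of 28 and 4. Since the libraries carry no strand, reads of these entries cannot be told from those of a gene or pre-mRNA that overlaps them.

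**Figure D4:**
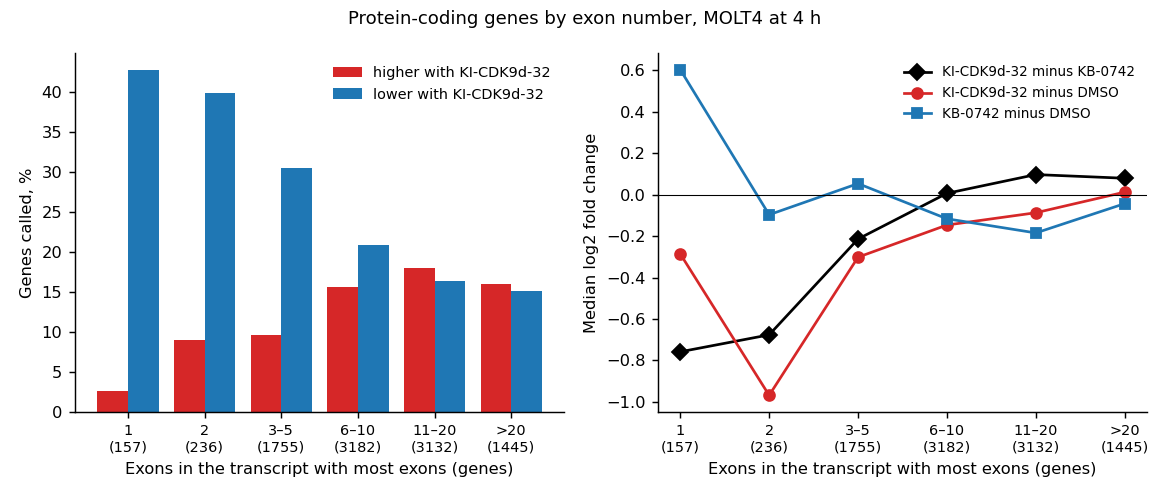
Protein-coding genes grouped by exon number (x axis, number of genes in brackets): left, % called higher (red) or lower (blue) under KI-CDK9d-32 with TMM scaling. Right, with TMM scaling, median log2 fold change between the compounds (black) and of each against DMSO (red and blue), with 42.7% of 1-exon genes and 15.1% of genes with over 20 exons lower.

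The same compounds were also compared in other libraries. Of the 1707 genes higher in MOLT4 at 4 h, 33.4% were also called higher at 2 h, where 8.20% of all genes were, and 62.3% at 8 h (28.9% of all genes). Of the 2457 lower genes, 34.1% were also called lower at 2 h (10.1% of all genes) and 76.5% at 8 h (29.6%). In PSN1 at 4 h, 32.2% of 1473 higher and 26.9% of 2269 lower genes tested there were called the same way, beside 9.97% and 7.47% of all genes. In RH4 at 4 h the shares were 46.5% of 1472 and 37% of 2263, beside 13.4% and 12.4%. Opposite calls made up at most 6.8% of any of these sets. The libraries differed between these comparisons, though the MOLT4 times share 1 fit and its estimate of spread.

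The size of the difference changed between 2 h and 4 h for 979 genes (8.39%) and between 4 h and 8 h for 3218 (27.6%), by the edgeR test of the change itself, and with spike-in scaling for 65 and 5226. It differed between MOLT4 and PSN1 for 910 genes (7.15%) and between MOLT4 and RH4 for 1016 (7.99%), and with spike-in scaling for 160 and 284. MYC passed all 4 tests with TMM. Changes of single genes here and below used TMM scaling and were not read with spike-in scaling. Its gap was wider at 4 h than at 2 h (change -0.89 ± 0.22, edgeR adjusted p = 0.00664) and narrower at 8 h (change 1.91 ± 0.24, adjusted p = 1.65e-08). In PSN1 the gap was -0.82 ± 0.14 and in RH4 -1.25 ± 0.25 (difference of MOLT4 from them -2.84 ± 0.27, edgeR adjusted p = 4.1e-09, and -2.42 ± 0.31, adjusted p = 1.29e-06).

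For HEXIM1 no change was detected. Its difference was 1.03 ± 0.38 in PSN1 and 1.98 ± 0.47 in RH4 (edgeR adjusted p of the 4 changes 0.182 to 0.941). CCNT1 was at -1.30 ± 0.24 in PSN1 and -1.47 ± 0.24 in RH4, with MOLT4 differing by -0.11 ± 0.31 and 0.046 ± 0.32. RNPC3 was at 3.22 ± 0.34 and 3.11 ± 0.29, TNFRSF13C at 4.02 ± 0.37 and 2.76 ± 0.25, and TRIM66 at 2.55 ± 0.28 and 3.57 ± 0.30, and none of these differed from MOLT4 past the threshold. A test that was not passed does not show that the values are alike.

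RPUSD2, by contrast, was at -0.12 ± 0.41 in PSN1 and -0.38 ± 0.31 in RH4, and MOLT4 differed by -4.18 ± 0.71 (edgeR adjusted p = 0.000246) and -3.94 ± 0.69 (0.000371). MUL1 was at -0.014 ± 0.23 and -0.16 ± 0.18, and MOLT4 differed by -3.97 ± 0.43 (1.25e-08) and -3.83 ± 0.41 (1.58e-08). PBK was at 0.12 ± 0.28 and 0.34 ± 0.20, and MOLT4 differed by 3.02 ± 0.36 (1.3e-07) and 2.78 ± 0.35 (4.55e-07). These 3 genes lay near 0 in the other lines. TOGARAM1 (-2.58 ± 0.26 and -2.49 ± 0.20) and CTSZ (-2.39 ± 0.17 and -2.14 ± 0.17) were lower in all 3 lines, and more so in MOLT4. Of 1-exon genes, 2.68% of 112 were lower in PSN1, beside 7.68% of all protein-coding genes, and 20.3% of 123 in RH4, beside 12.99%. In MOLT4 at 2 h 24.8% of 157 were lower, beside 9.73%. At 8 h 40.8% were lower and 35.03% higher, beside 31.3% and 29.8% of all protein-coding genes. The change of these shares was not tested.

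**Figure D5:**
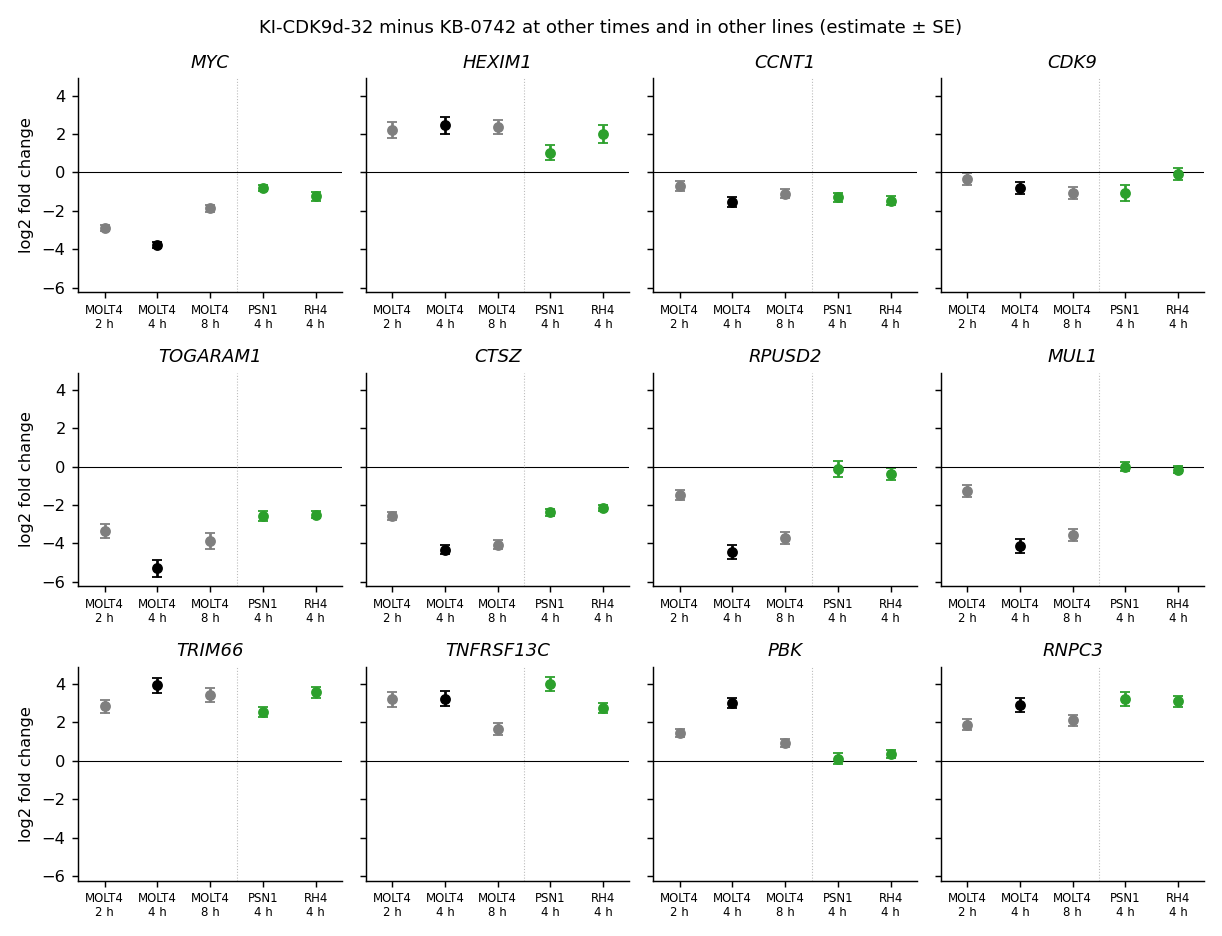
Log2 fold change ± SE of KI-CDK9d-32 over KB-0742 (y axis) for 12 genes in MOLT4 at 2, 4 and 8 h and in PSN1 and RH4 at 4 h (x axis). MYC has its widest gap in MOLT4 at 4 h, and RNPC3 and TNFRSF13C are higher in all 5 comparisons.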

How the data were processed

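RNA was measured by sequencing. Per the labels, libraries came from 1 ng of RNA by SMART-seq2 in reduced volume and Nextera XT tagmentation, which keep no strand and carry no molecular identifiers. The submitters' processing notes name Salmon, with no version given, and the hg38 build. The annotation is not given in the sources used here. The deposited tables hold expected counts per gene (estimated counts rounded to whole numbers by the authors) and log2 values of TPM plus 1 per the file headers and values. Of 62856 entries, 92 ERCC, 7 SIRV and 47 Y-chromosome pseudoautosomal rows were dropped.

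Counts of all 35 MOLT4 libraries were fitted together, 1 coefficient per group, in edgeR 4.0.16 (R 4.3.3, filterByExpr minimum count of 10, TMM, robust quasi-likelihood F test, Benjamini-Hochberg at 0.05). The filter removed 0.437% of gene counts, and the biological coefficient of variation was 0.21. The SE is the log2 fold change over the root of F, and 95% intervals use the t distribution. Differences between lines used 1 fit of 24 libraries and 12722 genes. Alternatives were spike-in scaling, RLE, other filters, DESeq2 1.42.0, limma 3.58.1 on the log2 values, the 8 libraries alone, a replicate block and omissions. Counting intervals and floors cover counting error only. Scripts were tested on simulated data in which 91 of 11664 genes changed by 1 log2 unit and 109 by 2. Of these, 30.8% and 69.7% were called, and so were 8 unchanged genes. Far fewer genes changed there than were called here, so these rates do not give the sensitivity in the data. An uncalled gene may still differ. The pass criterion, on genes with a mean level of at least 3 log2 CPM, was set after a first run.

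The members and the 41 gene lists (1145 entries) were chosen with earlier results of these data known, and lists carry no test of their own. Named genes are 9 fixed genes, the 8 highest and 8 lowest called genes without overlap whose mean reached 3 log2 CPM, and up to 3 called members per list. NPM1, NCL, NOC4L, GAS5, SNHG1, SNHG6, SNHG14, MAX, FOS, EGR1 and the E-box genes were named in addition after their values were seen. Positions come from GENCODE 29, promoters from RefSeq.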

Additional observations from a re-analysis of the deposited data

Results flagged for a closer look

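Among the genes followed in every comparison and the most changed ones, 1 library stood apart from the other 3 of its group in 4 cases by Dixon's test. Chance gives this in about 1 of 20 groups, so some such cases are expected among the groups of these genes. CDK9 was at 4.95 CPM in KI-CDK9d-32 replicate 2 (others 7.92 to 8.50), POLR2A at 121 CPM in KB-0742 replicate 4 (74.1 to 78.6), TRIM66 at 0 in KB-0742 replicate 3 (2.6 to 2.85) and BIN3 at 8.36 CPM in the same library (1.58 to 2.44). The spike-in share of KB-0742 replicate 3 stood apart as well, at 49.4% (16.3 to 20.9%). Without both replicate 3 libraries 3419 genes were called, 1338 higher and 2081 lower.

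With TMM scaling, the difference between the compounds in MYC changed with time and line. The change was -0.89 ± 0.22 from 2 h to 4 h (edgeR adjusted p = 0.00664) and 1.91 ± 0.24 from 4 h to 8 h (1.65e-08), and MOLT4 differed from PSN1 by -2.84 ± 0.27 (4.10e-09) and from RH4 by -2.42 ± 0.31 (1.29e-06). For POLR2A the difference rose by 0.93 ± 0.22 from 4 h to 8 h (0.000810). Over all genes and with TMM scaling, the difference changed for 979 from 2 h to 4 h and for 3218 from 4 h to 8 h. It differed for 910 between MOLT4 and PSN1 and for 1016 between MOLT4 and RH4.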

How the results depend on the processing

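No gene was called in the direction opposite to that reported under any alternative. Spike-in scaling gave 1639 calls, 895 higher and 744 lower, and its counts of changed differences were 65 (2 h to 4 h), 5226 (4 h to 8 h), 160 (MOLT4 against PSN1) and 284 (MOLT4 against RH4). The cause was not tested. Limma on log2(TPM + 1) gave 1393 lower genes, and under it BCL2L1, BCL2L11, BIRC5, CDK9, CFLAR, ELOC, MEPCE, MIAT, MT-CO2, NEAT1, RBX1, RPL34, RPS14, RPS15A, SESN2, TRIB3 and UMPS lost their calls. CDK9, ELOC and RBX1 lost their calls also with RLE, with no filter, with a minimum count of 30, with DESeq2 and with the 8 libraries alone. MT-CO2 lost its call with RLE and both filters, SNORD3A with no filter, DESeq2 and the 8 libraries alone, CFLAR with no filter and the 8 libraries alone, and TRIB3 with the 8 libraries alone. The share of calls toward higher, 41% in the report, was 48% with RLE, 50% with no filter, 50.4% with a minimum count of 30, 48.2% with DESeq2 and 58.5% with limma. Total calls with RLE, the other filters, DESeq2, limma and the 8 libraries alone were 3359 to 4379, and 3658 to 3896 when 1 library was left out. The spike-in share difference ran from -8.14 to 4.98 when 1 library was left out, turning positive without KI-CDK9d-32 replicate 4 (0.333) and without KB-0742 replicate 3. POLR2A ran from -0.050 to 0.23 and was -0.028 without both replicate 3 libraries. With spike-in scaling MT-CYB became 6.03e-05, MT-ATP6 0.075 (0.029 with limma), RBX1 0.092 and ELOC 0.031. Deviations of same-numbered libraries correlated by 0.0034 to 0.045, and those of libraries with different numbers by -0.059 to 0.035. These low correlations over all genes do not show whether replicate numbers pair the libraries, and replicate 3 had the highest spike-in share in each group. A replicate block gave 4326 calls, 1777 higher and 2549 lower, counts of changed differences of 1084, 3294, 1134 and 1423, and a spike-in share difference of -2.76 (exact permutation p = 0.375). Among genes the report describes it ended only the call of SNORD3A.

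Depth limited genes with few counts, such as CDK9, and 42.3% of uncalled genes had an interval within 1 log2 unit of 0. The spread of spike-in shares between replicates limits every spike-in scaled estimate.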
